A study of Mus musculus with 12 samples.

Results

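Hyaluronan is the long sugar chain of the extracellular matrix, and the genes described here are 9 that make it, cut it or bind it: Ugdh, Has1, Has2, Has3, Hyal1, Hyal2, Cd44, Vcan and Hapln1. They were found in the deposited tables by their Entrez gene identifiers, 9 of the 27179 genes listed, and 8 of them were among the 14219 genes with a mean normalised count of at least 20 that entered the tests. The set was chosen with the comparison of ages in these same samples in view, so the age values of the 9 genes are given as a description and without a test. The tissue was the RPE (retinal pigment epithelium), the pigmented layer that faces the photoreceptors, and its RNA was sequenced from 3 male 22-month-old (22m) and 3 male 5-month-old (5m) mice. All mice were wild-type C57BL/6J from a commercial supplier, and each eye gave its own library, so that 12 libraries stood for 6 mice. Mice 1 and 2 of each age were labelled batch 1 and mouse 3 of each age batch 2. Both eyes of an animal share its history, so their counts were summed and the mouse was the replicate. All eyecups were incubated in hyaluronidase and then in trypsin during the isolation, so the matrix itself was digested before the RNA was taken.

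Hyaluronan is polymerised at the plasma membrane by the synthases HAS1, HAS2 and HAS3 from UDP-glucuronic acid and UDP-N-acetylglucosamine, and the chain is extruded into the matrix as it grows. Hyaluronidases cut it, CD44 binds it at the cell surface, and versican and the link proteins lock together on it to form large aggregates. In the eye it fills the vitreous and is a main component of the interphotoreceptor matrix, the material between the RPE and the photoreceptors.

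The 3 synthases are paralogs, as are the 2 hyaluronidases, so the longest stretch of identical bases between their GENCODE transcripts was measured against the 75-base reads. All of these stretches lay in coding sequence. They are shown with 20 flanking bases, the identical bases in capitals, for the closest pair of synthases and for the hyaluronidases.
Has2 (with Has3): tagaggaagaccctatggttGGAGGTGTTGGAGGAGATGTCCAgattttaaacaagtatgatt
Has3 (with Has2): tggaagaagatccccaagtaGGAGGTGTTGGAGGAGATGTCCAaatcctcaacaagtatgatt
Hyal1 (with Hyal2): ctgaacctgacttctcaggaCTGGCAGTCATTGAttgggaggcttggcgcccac
Hyal2 (with Hyal1): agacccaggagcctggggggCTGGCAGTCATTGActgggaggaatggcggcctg
Has2 and Has3 shared at most 23 bases in a row, Has1 shared at most 17 with either of the others, and Hyal1 and Hyal2 shared at most 14. In the orientation of the transcripts, no read of full length could therefore match 2 of these genes without a mismatch. Overlapping neighbours were a separate matter. Has2 shared 182 exon bases with the antisense gene Has2os, which had 42 reads over the 12 libraries, against 645 for Has2. Hyal1 shared 1920 exon bases with Naa80 and 159 with Hyal3, both on its own strand. How reads in shared bases were assigned, and whether counting used strand, is not given in the sources used here, so the Hyal1 values in particular are uncertain.

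Library totals were between 9171131 and 12324029 reads per eye at 22m and between 9758665 and 13217909 at 5m. Over all genes edgeR's quasi-likelihood test with batch in the model called 321 genes lower and 769 higher at 22m (Benjamini-Hochberg adjusted p under 0.05 and log2 fold change beyond 0.25). The RPE was present in all mice, with the 12 RPE markers led by Rpe65 summing to between 11450 and 34770 CPM (counts scaled to the library total) in 22m mice and between 25240 and 40100 CPM in 5m mice, and 2 of the 12 were called lower. RNA of other cells was present too, and part of it moved with age. No tested marker of fibroblast and stroma, endothelium or skeletal muscle was called, and 1 of the 10 Mueller glia and astrocyte markers was. The 14 rod photoreceptor markers summed to 3041 to 17860 CPM at 22m and 1694 to 4254 CPM at 5m, and 13 of the 14 were called higher. Of the 6 mast cell markers 4 were called higher, with sums of 68.9 to 267.1 CPM at 22m and 60.7 to 64.1 CPM at 5m, and the highest sums were those of 22m mouse 3, at 293.4 CPM in the right and 243 CPM in the left eye, while the right eyes of 22m mice 1 and 2 had 52.3 and 57.0 CPM. Of the 8 surface epithelium markers, led by Krt12, 3 were called higher, with sums of 34.9 to 103.9 CPM at 22m and 2.32 to 13.2 CPM at 5m. Of the 10 bipolar and amacrine neuron markers 6 were called higher, though their sums overlapped, at 719.9 to 1044 CPM at 22m and 736.4 to 917.8 CPM at 5m. Of the 7 melanocyte markers, led by Mlana, 4 were called lower, with sums of 620.3 to 891 CPM at 22m and 1227 to 1439 CPM at 5m. No gene of these lists was at 0 in all libraries, and the part of these cells other than rods in the values below was not tested.

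Has2, on chromosome 15 (chr15:56665627-56694546, minus strand, GRCm38.p6), is the synthase that makes long chains and is essential in mouse development. It had 2.01, 1.77 and 1.52 CPM in 22m mice 1, 2 and 3, against 5.12, 10.8 and 7.68 CPM in the 5m mice. Single eyes lay between 1.14 and 2.58 CPM (median 1.78) at 22m and between 4.54 and 11.4 CPM (median 7.62) at 5m. Every one of the 6 eyes at 22m was thus below every eye at 5m, and the groups did not overlap. These eyes are pairs from 3 mice per age, and the share of all tested genes with eyes apart was not counted. With mice as the unit, 12.8% of all tested genes did not overlap between the ages. The mean was 1.77 ± 0.244 CPM at 22m and 7.87 ± 2.85 CPM at 5m (SD, n = 3 mice each), and the fitted log2 fold change was -2.16 (standard error 0.32), which is 4.46-fold lower at 22m. The counts behind these values were low, at 13 to 30 reads per eye at 22m and 44 to 118 at 5m. In bulk RNA, fewer cells of the type that expresses a gene and less RNA per cell cannot be told apart. Has2os, its antisense neighbour, had 0 to 4 reads per eye at 22m and 2 to 8 at 5m.

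Has3, on chromosome 8 (chr8:106870242-106882902, plus strand), makes shorter chains. It had 7.72, 7.41 and 2.78 CPM in 22m mice 1, 2 and 3, against 6.30, 5.97 and 1.10 CPM in the 5m mice. The 22m mouse was above the 5m mouse in each batch, but mouse 3 was the lowest at both ages and the groups overlapped. The log2 fold change was 0.58 (standard error 0.23). Has1, on chromosome 17 (chr17:17833691-17855589, minus strand), was the least expressed synthase, with 5 to 20 reads per eye at 22m and 6 to 22 at 5m, under the minimum for the tests. Its means were 1.23 ± 0.651 CPM at 22m and 1.47 ± 0.822 CPM at 5m (SD, n = 3 each), less than 1 SD apart.

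**Figure D1:**
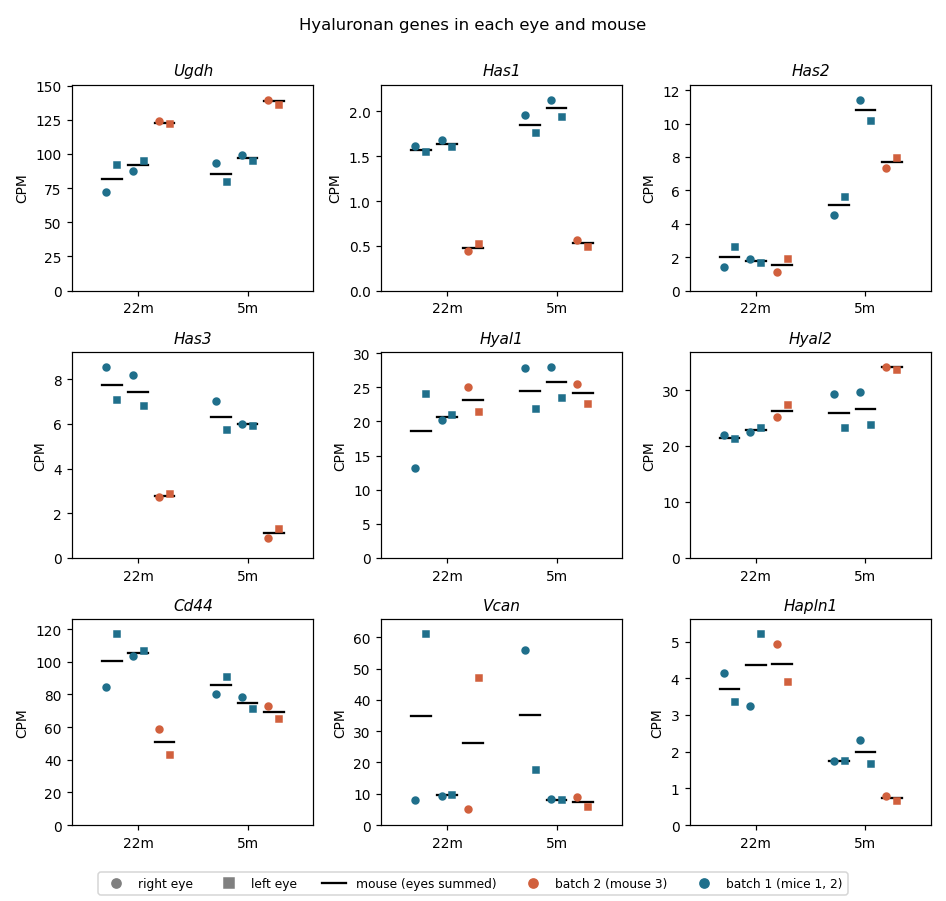
CPM (vertical axis, from 0) of each of the 9 genes, 22m left of 5m, with a circle for a right eye, a square for a left eye, a black line for the mouse and colour for the batch. The 6 eyes at 22m lie below all eyes at 5m for Has2 and above them for Hapln1, mouse 3 stands low for Has1 and Has3 at both ages, and Vcan has 3 mice whose eyes lie far apart.

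Ugdh, on chromosome 5 (chr5:65413207-65435842, minus strand), oxidises UDP-glucose to the UDP-glucuronic acid that the synthases use. It had 81.8, 92.0 and 122.6 CPM in 22m mice and 85.4, 97.2 and 139 CPM in 5m mice. The ages overlapped and mouse 3 was the highest at each age. The log2 fold change was -0.11 (standard error 0.09).

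Hyal1 and Hyal2 lie side by side on chromosome 9 (chr9:107576950-107581699 and chr9:107567873-107572778, both plus strand). HYAL2 is anchored at the cell surface and cuts long chains into pieces, which the lysosomal HYAL1 cuts further. Hyal1 had 18.6, 20.7 and 23.2 CPM in 22m mice, against 24.5, 25.7 and 24.2 CPM in 5m mice. Its mice did not overlap between the ages, but its eyes did, at 13.1 to 25.1 CPM at 22m and 21.9 to 27.98 CPM at 5m, and its log2 fold change was -0.26 (standard error 0.10). The rod score of an eye is the mean log2 CPM of the rod markers, and in a fit over single eyes that also held this score the value was 0.07 (standard error 0.13), of the other sign. That fit held no mouse term and took the eyes of a mouse as separate samples, so its standard errors can be too small. Hyal2 had 21.5, 22.9 and 26.2 CPM in 22m mice and 26.0, 26.7 and 34.1 CPM in 5m mice, and the 22m mouse was below the 5m mouse of the same number in each case. Its log2 fold change was -0.29 (standard error 0.07).

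Cd44, on chromosome 2 (chr2:102811141-102901669, minus strand), encodes the main cell surface receptor of hyaluronan, which links it to the actin cytoskeleton. It had 100.4, 105.6 and 50.8 CPM in 22m mice, against 85.7, 74.9 and 69.5 CPM in 5m mice. The 22m mice held both the highest values and the lowest, mouse 3, so that the mean of 85.6 ± 30.3 CPM at 22m and that of 76.7 ± 8.25 CPM at 5m differed by less than the SD at 22m (n = 3 each). The log2 fold change was 0.09 (standard error 0.18), and it was -0.05 without 5m mouse 2 and 0.36 without mouse 3 of either age.

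Vcan, on chromosome 13 (chr13:89655309-89743027, minus strand), encodes versican, a large chondroitin sulfate proteoglycan that binds hyaluronan through its head domain. It had 34.8, 9.51 and 26.1 CPM in 22m mice, against 35.1, 8.11 and 7.44 CPM in 5m mice. Mouse 1 of both ages and mouse 3 at 22m were high and the other mice low. Its log2 fold change of 0.59 was smaller than its standard error of 0.75, and it was -1.57 with right eyes alone, 1.94 with left eyes alone and 1.61 without 5m mouse 1. The mouse values were set by single eyes, described below.

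Hapln1, next to Vcan on chromosome 13 (chr13:89540529-89611832, plus strand), encodes the link protein that fastens proteoglycans such as versican to hyaluronan. It had 3.71, 4.37 and 4.39 CPM in 22m mice, against 1.75, 1.99 and 0.732 CPM in 5m mice. Single eyes lay between 3.25 and 5.20 CPM (median 4.01) at 22m and between 0.646 and 2.32 CPM (median 1.71) at 5m. Every eye at 22m was above every eye at 5m, again as pairs of eyes from 3 mice per age. As for Has2, the share of all tested genes with eyes apart was not counted, and by mouse it was 12.8%. The means were 4.15 ± 0.386 CPM at 22m and 1.49 ± 0.669 CPM at 5m (SD, n = 3 each), and the fitted log2 value was 1.55 (standard error 0.33), or 2.92-fold higher. Its total count was the lowest after that of Has1, at 31 to 65 reads per eye at 22m and 8 to 24 at 5m.

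Of the 8 tested genes, 1 (Has2) was called lower, where 2.26% of all tested genes were, and 1 (Hapln1) was called higher, where 5.41% were. Since the genes were chosen on this contrast, nothing is read from these counts. The median log2 fold change of the 8 was -0.01, as was that of all tested genes. When mouse numbers replaced the batch as a block, which pairs mice of the same number, the fitted values were -2.10 for Has2 and 1.54 for Hapln1. That model called 1.29% of all tested genes lower and 4.53% higher, with Has2 still among its calls and Hapln1 not. In a fit over single eyes that also held the rod score, which changed the unit as well as the model, they were -1.999 (standard error 0.34) and 1.93 (standard error 0.34). With no mouse term in that fit, its standard errors take the eyes of a mouse as separate samples. These values too are descriptions of genes chosen on age and lend the choice no support. The mice of the ages did not overlap in CPM for 3 of the 9 genes (Has2, Hyal1 and Hapln1), against 12.8% of all tested genes, and this too only describes the choice.

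The mice of the ages did not overlap in CPM for Has2 and Hapln1, so their direction within each batch was fixed in advance. Only the size of their ratios is described. The log2 ratio of Has2 was -2.34 in batch 2 and -2.07 in batch 1, and that of Hapln1 was 2.58 in batch 2 and 1.11 in batch 1. Cd44 was the only one of the 8 whose batches differed in sign, at -0.45 in batch 2 and 0.36 in batch 1. Batch 2 holds 1 mouse per age, so its ratios have no spread of their own. A test of the difference of the age effect between batches, added after the data were seen, called 0 of all tested genes (0.0%) with edgeR, although 2374 genes had an unadjusted p under 0.05, 3 of the 8 (Has3, Cd44 and Hapln1) among them.

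**Figure D2:**
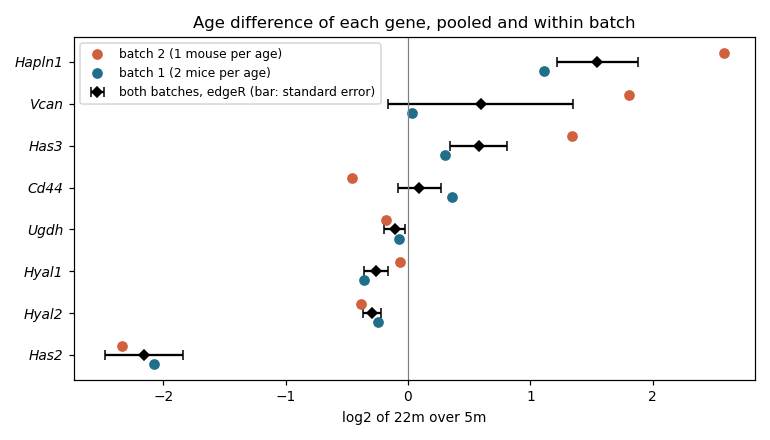
Log2 of 22m over 5m (horizontal axis) for the 8 tested genes, with a diamond for the edgeR fit over both batches, its standard error as a bar, and circles for the ratio of mean CPM within batch 2 and within batch 1. Has2 and Hapln1 lie on the same side of 0 in both batches, which follows from mice that do not overlap between the ages. Cd44 has its circles on opposite sides of 0.

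The batch comparison was not used to choose the genes and could be tested, with age in the model and p-values adjusted over all tested genes. Batches differed in a large part of the transcriptome, with 25.6% of all tested genes called lower in batch 2 than in batch 1 and 26.3% called higher, so a call for a member is not unusual. Has3 and Cd44 were lower in batch 2, and Ugdh and Hyal2 were higher, 4 of the 8. Has3 had 1.10 to 2.78 CPM in the 2 mice of batch 2 and 5.97 to 7.72 CPM in the 4 mice of batch 1, and a log2 difference of -1.89 (standard error 0.27, edgeR adjusted p = 0.00268). The mice of the batches did not overlap, and the batch difference of Has3 was larger than its age difference. Ugdh had 122.6 to 139 CPM in batch 2 and 81.8 to 97.2 CPM in batch 1, a log2 fold change of 0.55 (standard error 0.09, edgeR adjusted p = 0.00409). Hyal2 differed by 0.31 on the log2 scale (standard error 0.08, edgeR adjusted p = 0.0187), with 26.2 to 34.1 CPM in batch 2 and 21.5 to 26.7 CPM in batch 1. Cd44 differed by -0.59 (standard error 0.19, edgeR adjusted p = 0.0419), with 50.8 to 69.5 CPM in batch 2 and 74.9 to 105.6 CPM in batch 1. Has3 and Ugdh kept their calls with any mouse left out, while Cd44 and Hyal2 each lost theirs in 4 of the 6 fits without 1 mouse, both of them without mouse 1 of either age. Has2 was at -0.16 (standard error 0.33, edgeR adjusted p = 0.707) between the batches and Hapln1 at -0.44 (standard error 0.35, edgeR adjusted p = 0.325), and neither passed the test, though Hapln1 was called without 22m mouse 3. With no filter beyond a total count of 10, Cd44 lost its call and Has1 gained one. What the labelled batches differed in beyond being separate experiments is not given, and what set these differences was not tested.

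Both eyes of a mouse share its age and batch, and the difference between them shows how far a value can move within 1 animal. Vcan moved most. Its right eye had 8.01 CPM and its left eye 61.0 CPM in 22m mouse 1, and its right eye had 5.01 CPM and its left eye 46.9 CPM in 22m mouse 3. In 5m mouse 1 the high eye was the right one, at 56.0 CPM, with 17.6 CPM in the left. The other 3 mice had 5.89 to 9.60 CPM in every eye. The ratio of the higher to the lower eye was thus 7.62, 9.35 and 3.18 in those 3 mice, and it reached at most 1.83 in any other of the 9 genes, for Hyal1 in 22m mouse 1. The median absolute log2 difference of Vcan between eyes was 1.12, against 0.17 for the median tested gene, and lay at percentile 97.3 of all tested genes. The median was 0.23 for Has2 and 0.32 for Hapln1, and the largest difference in a mouse was 0.81 for Has2 and 0.66 for Hapln1. The markers of the iris and ciliary epithelium, which borders the RPE, summed to 982 CPM in the high eye and 556 CPM in the low eye of 22m mouse 1, to 1604 and 1283 CPM in those of 22m mouse 3, and to 1624 and 1164 CPM in those of 5m mouse 1. The sum was higher in the high Vcan eye of all 3 mice, and it was 1530 CPM in the right eye of 5m mouse 2, where Vcan was low. The RPE marker sum was also higher in the high Vcan eye of these 3 mice. It was 15110 against 7833 CPM in 22m mouse 1, 37330 against 32380 in 22m mouse 3 and 29650 against 21610 in 5m mouse 1. The sum of the Mueller glia and astrocyte markers was higher there too, at 8136 against 6067, 16470 against 13760 and 9257 against 8049 CPM in the same order of mice. The pattern was thus not particular to a single list, and the part of these tissues in the Vcan values was not tested.

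**Figure D3:**
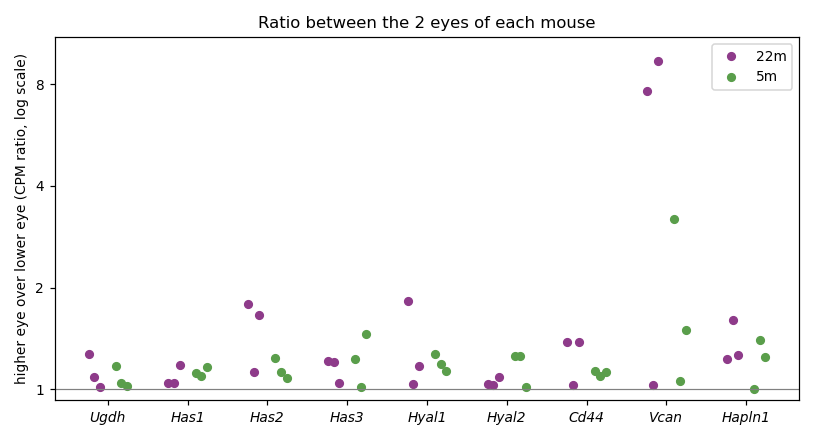
Ratio of the higher to the lower eye in CPM (vertical axis, log scale) for each of the 9 genes, with 1 point per mouse and 22m left of 5m. The 3 points above 3 all belong to Vcan, 2 of them at 22m and 1 at 5m, and no other gene passes 1.83.

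The high eye was not always on the same side, and no gene was called between right and left eyes. The paired test over 6 mice called 0 of all tested genes (0.0%) with edgeR, and DESeq2 called 0 as well. At an unadjusted p under 0.05 there were 132 genes, none of them one of the 9. The right-minus-left log2 fold change of Vcan was -0.59 with a standard error of 0.73, and those of the other 7 tested genes were between -0.24 and 0.11.

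Rod RNA also differed between the eyes of a mouse, so its slope could be tested within mice without using age. Of all tested genes 4.85% were called for the rod score, 680 of 689 with a positive slope. None of the 8 was called by edgeR or by DESeq2, and 1 of them, Hyal1, had an unadjusted p under 0.05. Hyal1 fell by 0.18 on the log2 scale for each unit of the rod score (standard error 0.06, edgeR adjusted p = 0.142). The slopes of Has2 (-0.01, standard error 0.10) and Hapln1 (-0.09, standard error 0.11) were within 1 standard error of 0.

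Per kilobase of exon the genes fell into an upper and a lower tier. Ugdh was at 15.2 ± 3.37 CPM per kb (SD, n = 6 mice), Cd44 at 11.98 ± 3.01, Hyal2 at 7.97 ± 1.33 and Hyal1 at 6.04 ± 0.714. The proteoglycan, the synthases and the link protein followed, with Vcan at 1.40 ± 0.924, Has2 at 1.14 ± 0.897, Has3 at 0.817 ± 0.419, Hapln1 at 0.478 ± 0.261 and Has1 at 0.299 ± 0.150. Hyal1 and Vcan were the one pair of neighbours in this order whose ranges over the 6 mice did not overlap, at 4.91 to 6.82 and 0.514 to 2.43 CPM per kb. Neighbours within the tiers overlapped, although Hyal2 was above Hyal1 in each of the 6 mice. The place of Hyal1 in this order is uncertain. It shares 1920 of its 3777 exon bases with Naa80, and how reads in them were assigned is not given. Among the synthases the order of the means changed with age. Has2 was at 0.417 ± 0.057 CPM per kb, under Has3 at 0.936 ± 0.434, in 22m mice, and at 1.86 ± 0.673, above Has3 at 0.699 ± 0.457, in 5m mice (SD, n = 3 each). As the genes were chosen on the ages, this order is a description.

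**Figure D4:**
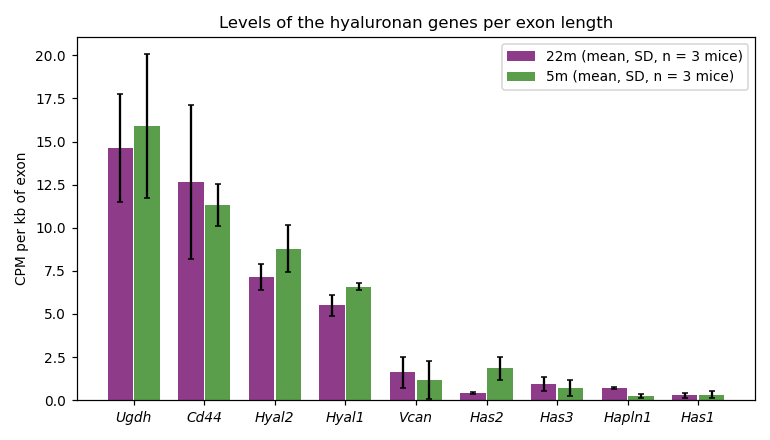
Level per kilobase of exon (vertical axis, CPM per kb, from 0) of the 9 genes in the order of their mean, with bars for the mean and lines for the SD of 3 mice at 22m (left) and 3 at 5m (right). The bars of Ugdh, Cd44, Hyal2 and Hyal1 are at 5.51 CPM per kb or more, and those of Vcan and the others at 1.86 or less.

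After the age and batch means were removed, the log2 CPM of each tested gene was compared with that of all others over the 12 libraries, which come in pairs from 6 mice, and the closest genes are named as a description. Cd44 was closest to Myoc (r = 0.97), Kirrel and Erbb3, and Vcan to Pde1a (r = 0.97), Pkp4 and Niban1. Of these, Pde1a and Niban1 had median log2 differences between eyes of 0.96 and 1.00, almost as large as that of Vcan. Hyal1 was closest to Rbms1 (r = 0.98), Tns3 and Atl3, Ugdh to Lsm10 (r = 0.97), Pnpla7 and Rap1b, and Has3 to Zfp970 (r = 0.96), R3hcc1 and Eif4a2. Hyal2 was closest to Hddc3 (r = 0.94), Akr7a5 and 2310057M21Rik, Has2 to Atg4b (r = 0.93), Nosip and Rpp25l, and Hapln1 to Bmf (r = 0.92), Phlpp2 and Gm20605. None of these 24 neighbours was called between the ages, beside 2.26% of all tested genes called lower and 5.41% called higher. They were picked with the age means removed, so nothing is read from this count. Among 120 pairs of a gene and a marker list examined in the same way, the highest was Hapln1 with the mast cell list (r = 0.88). The sum of that list was highest in the eyes of 1 mouse. Next were Hyal1 with the RPE list (r = 0.87) and Cd44 with the macrophage and microglia list (r = 0.84). Vcan was highest with the iris and ciliary epithelium list (r = 0.64), and Has2 reached 0.41 at most. Age and batch means were removed as separate terms, so an age difference unequal between the batches stays in all these r values.

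The pathway around these genes was described through 76 other genes sorted by role. These lists were drawn up with earlier results of these data known. The adjusted p-values of their genes are therefore given as descriptions and not as independent evidence. Of the 76 genes, 61 were tested. Of these, 2 were called lower and 7 higher at 22m, beside 2.26% and 5.41% of all tested genes, with a median log2 fold change of 0.06. Where a gene below is said to be without overlap, 12.8% of all tested genes likewise had mice of the ages apart in CPM. Under the block of mouse numbers 5 were called (Chsy3, Ugp2, Impg1, Impg2 and Tnc), with the rod score added and each eye taken as a sample 3 (Chsy3, Chpf2 and Tnc), and 0 without 5m mouse 2, 22m mouse 1 or 22m mouse 2. The sugar nucleotide supply, 11 of 11 tested, held 1 call. Ugp2, which makes the UDP-glucose that Ugdh oxidises, had 104.2, 119.5 and 138.4 CPM in 22m mice, against 156.6, 177.9 and 188.5 CPM in 5m mice, without overlap, a log2 fold change of -0.54 (standard error 0.09, edgeR adjusted p = 0.0347).

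None of the 6 tested genes of breakdown, of the 6 of receptors and uptake, of the 4 cytoskeletal adaptors of CD44 or of the 6 versican proteases was called with edgeR. At an unadjusted p under 0.05 there were 3, 0, 0 and 2 of them, and DESeq2 on the same mouse sums called 2, 0, 0 and 1. Among all 14219 tested genes, 4422 had an edgeR unadjusted p under 0.05 and DESeq2 called 2365, so nothing is read from these counts. Cemip, which encodes a protein needed for hyaluronan breakdown, had a mean of 10.7 ± 3.94 CPM at 22m and 6.89 ± 3.79 CPM at 5m (SD, n = 3 each), a log2 fold change of 0.75 (standard error 0.19, edgeR adjusted p = 0.0697). Among the proteases that cleave versican, Adamts1 was at -0.77 (edgeR adjusted p = 0.0896) and Adamts9 at -0.33 (edgeR adjusted p = 0.0933). In both the mice of the ages did not overlap, as in 12.8% of all tested genes. Of the receptors, Lyve1 was at 0.35 and Tlr2 at 0.38, and of the adaptors Nf2 was at -0.21 and Ezr at -0.46, all with edgeR adjusted p between 0.201 and 0.289.

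Of the matrix proteins that bind hyaluronan or its partners 10 of 21 were tested and 4 were called, all higher. Beside this, 5.41% of all tested genes were called higher. In the fit over single eyes with the rod score, Tnc was the only 1 of the 4 still called. That fit took the eyes of a mouse as separate samples, so its calls cannot be set against those over mice. Tnc, which encodes tenascin C, a matrix glycoprotein that binds versican and related proteoglycans, had 155.8, 176.3 and 54.99 CPM in 22m mice, against 39.5, 38.5 and 26.6 CPM in 5m mice, without overlap, and a log2 fold change of 1.75 (standard error 0.22, edgeR adjusted p = 0.0245). Bcan, encoding brevican, a proteoglycan of nervous tissue, had 19.9, 21.0 and 45.2 CPM in 22m mice, against 13.8, 14.1 and 18.8 CPM in 5m mice, a log2 fold change of 0.80 (standard error 0.16, edgeR adjusted p = 0.0444). Impg1 and Impg2 encode the hyaluronan-binding proteoglycans of the interphotoreceptor matrix and are made by photoreceptors. They had log2 fold changes of 1.68 (standard error 0.19, edgeR adjusted p = 0.0226) and 1.63 (standard error 0.26, edgeR adjusted p = 0.0307), with means of 88.9 ± 58.2 and 121.4 ± 87.9 CPM in 22m mice and 24.7 ± 12.1 and 33.0 ± 18.5 CPM in 5m mice (SD, n = 3 each). Both also rose with the rod score between the eyes of a mouse, by 1.00 and 0.97 log2 per unit (edgeR adjusted p = 2.56e-06 and 6.55e-07), and with this score in an age fit over single eyes their age differences were 0.08 and 0.05. Tnc and Bcan had slopes of -0.02 each on the rod score and age differences of 1.66 and 0.95 in that fit.

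Versican and brevican carry chondroitin sulfate, and of 19 genes that build these chains 18 were tested. Of these, 1 was called lower and 3 higher, beside 2.26% and 5.41% of all tested genes. Chsy3, a chondroitin synthase, had 17.9, 20.2 and 12.5 CPM in 22m mice, against 37.2, 38.4 and 21.2 CPM in 5m mice, without overlap, at a log2 fold change of -0.91 (standard error 0.09, edgeR adjusted p = 0.0195). Chpf2, a chondroitin polymerising factor, was at 0.33 (standard error 0.06, edgeR adjusted p = 0.0399) and the sulfotransferase Chst15 at 0.28 (standard error 0.06, edgeR adjusted p = 0.0485). Chst3, another sulfotransferase, was at 0.95 (standard error 0.19, edgeR adjusted p = 0.0457), rose by 0.54 log2 per unit of the rod score within mice (edgeR adjusted p = 0.00281) and was at 0.05 with the score in the age fit over single eyes.

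**Figure D5:**
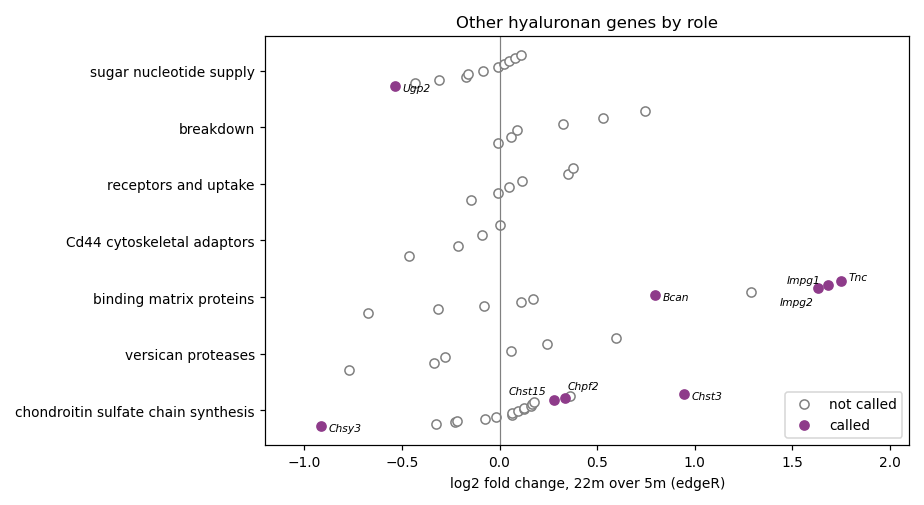
Log2 fold change of 22m over 5m (horizontal axis, edgeR) for the 61 tested genes of 7 role lists, with filled points for called genes and open points for the rest. The 2 genes called lower are Ugp2 and Chsy3, and of the 7 called higher 4 are matrix proteins.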

How the data were processed

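RPE RNA from 12 eyes of 6 mice was sequenced from ribosomal-RNA-depleted total RNA with paired 75-base reads. Per the labels and methods, the authors ran Trimmomatic, then HISAT2 against mm10, and deposited raw counts per Entrez gene from featureCounts. They also deposited batch-corrected counts (ComBat-seq), here treated as estimated counts, and the same values divided by DESeq2 size factors, a normalised signal. Their versions and any strand option were not stated.

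Raw counts of the eyes of a mouse were summed and tested with edgeR 4.0.16 (TMM, quasi-likelihood, batch and age) in R 4.3.3 over the 14219 genes with a mean deposited normalised count of at least 20, with Benjamini-Hochberg adjustment and a log2 threshold of 0.25. Right against left eyes and the slope on the rod score were tested over 12 eyes with the mouse as a term, the slope without a fold threshold. DESeq2 1.42.0, other filters, eyes taken singly, the deposited batch-corrected counts with each eye as a sample, and mice left out were tried as alternatives. The fits were tested on simulated data. CPM used TMM library sizes, with a prior count of 1 for log2 values. Each standard error is the fold change over the root of its F value. Symbols and coordinates are those of RefSeq GRCm38.p6 (25275 of 27179 identifiers matched, the other 1904 kept their identifier). Exon lengths and transcript sequences are those of GENCODE M21.

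Same-numbered mice of the 2 ages deviated together from their age means (correlations 0.77, 0.61 and 0.85), and mice 1 and 2, which share a batch, did so across numbers too (0.52 and 0.61). The labels do not tie the numbers to a litter or day, and the block is therefore given beside the results it changes. The mice are separate animals of an inbred strain.

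The 9 genes and all lists were chosen with earlier results of these data known. All 9 are named, with up to 4 called genes of each role list by smallest adjusted p, or the 2 smallest p where none was called, and the 3 closest genes by r. A gene that this rule also names is not reported here.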

Additional observations from a re-analysis of the deposited data

Results flagged for a closer look

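Vcan in the right eye of 5m mouse 1, at 56.0 CPM, stood apart from the other 5 eyes at 5m, with a gap to the nearest eye of 0.767 of the whole range by Dixon's criterion. It was the 1 flag among 18 groups of 6 eyes (9 genes at 2 ages), and chance alone flags about 1 group in 20. Eyes of the same mouse are not separate animals. At 22m, 2 eyes were of similar height (61.0 and 46.9 CPM), so that neither was a lone extreme there.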

How the results depend on the processing

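The main test called 1090 genes, 2 of the 8 tested hyaluronan genes (Has2 and Hapln1) and 9 of the 61 others. With no batch term it called 2, 0 and 0, and with right eyes alone 12, 0 and 0. Left eyes alone gave 178, 1 and 3. Each eye as a sample with DESeq2 on the batch-corrected counts gave 3323, 4 and 16, Has3 and Hyal2 being added. DESeq2 on mouse sums called 2365 genes, and edgeR over single eyes with the rod covariate, which changes the unit and the model together, 206 genes and 3 others. With mouse number as a replicate block, 1 hyaluronan gene (Has2) and 5 others were called, and 827 genes in all. Without 1 mouse at a time the counts ranged from 1 to 2990, from 0 to 2 and from 0 to 18, those of the batch comparison from 2 to 4 members, and the genes called for the rod score from 281 to 874. Has2 was not called without 5m mouse 2, 22m mouse 1 or 22m mouse 2, nor was Hapln1, which was also lost without 5m mouse 1. The log2 fold change of Has2 stayed between -2.44 and -1.82 over all 15 alternatives and that of Hapln1 between 1.11 and 1.93. The fits without mouse 3 of either age both rest on batch 1 alone and are not separate checks. Each gave -2.07 for Has2 and 1.11 for Hapln1. The sign turned for Cd44 without 5m mouse 2 (-0.045) or 22m mouse 2 (-0.002), within a range of -0.045 to 0.359 over the mice left out, for Ugdh with left eyes (0.015) or the rod covariate (0.006), for Hyal1 with the rod covariate (0.072) and for Vcan with right eyes (-1.566, against 1.935 with left eyes). Where another cause than fewer mice or eyes is possible, the cause was not tested. Depth limits Has1, Hapln1, Has3 and Has2 most, with as few as 5, 8, 11 and 13 reads in an eye.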

Other observations

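Among the 28 pairs of tested hyaluronan genes, log2 CPM with the age and batch means removed ran most closely together in Ugdh and Hyal1 (r = 0.73) and most closely opposite in Has3 and Cd44 (r = -0.82) over the 12 libraries. Has3 and Hapln1 had r = 0.62, and Cd44 and Hapln1 had r = -0.61. Has2 had r between -0.31 and 0.51 with the other 7. The age and batch means were removed as separate terms, so an age difference that was unequal between the 2 batches stayed in these values. That difference, batch 2 minus batch 1, was 1.03 for Has3, -0.81 for Cd44 and 1.47 for Hapln1 on the log2 scale. The libraries come in pairs from 6 mice, and these values are descriptions without a test.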
